A study of Mus musculus with 12 samples.

Results

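Sla2 and 9 other genes whose proteins dampen signalling by the T cell receptor were followed in cultured mouse CD4 T cells with and without NKG2D. The 10 genes were Sla2, Sla, Cblb, Cbl, Ubash3a, Ubash3b, Ptpn22, Dgka, Dgkz and Cd5, matched by Ensembl ID among 39179 gene IDs. Sla2 was chosen by its measured levels, which were low in NKG2D-deficient cells of both cultures, so its difference between the genotypes is given as a description without a test. The other 9 were chosen for what their proteins do, with earlier results of these data already known. RNA was sequenced from 12 sorted samples, 3 in each of 4 groups called Th17 KO, Th17 WT, Th1 KO and Th1 WT. All cells carried the OT-II receptor, a transgenic T cell receptor for an ovalbumin peptide, and naive CD4 cells were taken from lymph nodes and spleen. KO cells came from OT-II x NKG2D-/- mice and were sorted as Thy1.1+. WT cells came from OT-II mice on C57BL/6 and were sorted as Thy1.2+ and NKG2D+, so the Thy1 allele and the NKG2D gate went with genotype in every comparison. Both were grown in co-culture and stimulated with peptide and anti-CD28 in the presence of antigen-presenting cells. Th17 cultures received IL-1b, IL-6 and IL-23 with antibodies to IFNg and IL-4, and IL-12 was added after the second stimulation. Th1 cultures received IL-2, IL-12 and an antibody to IL-4. Polarization was begun on day 0 and repeated on day 5, and cells were harvested on day 8. The labels do not say whether samples of a group came from separate animals or cultures, so the p-values cover the spread between samples, which may be technical.

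An engaged T cell receptor is phosphorylated by Src-family kinases, recruits the kinase ZAP-70 and triggers diacylglycerol and calcium signals, and several layers of proteins switch this off. Sla2 and Sla encode the Src-like adaptor proteins SLAP2 and SLAP, which bring the ubiquitin ligase c-Cbl to receptor components and so lower the amount of receptor. Cblb and Cbl encode the ligases Cbl-b and c-Cbl, and Ubash3a and Ubash3b encode a pair of Cbl-binding phosphatase-family proteins, of which the Ubash3b product is the more active phosphatase on ZAP-70. Ptpn22 encodes a phosphatase that acts on Lck and ZAP-70, Dgka and Dgkz encode kinases that consume diacylglycerol, and Cd5 is a surface receptor that restrains the signal.

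The sequences upstream of Sla2 and Ubash3b are shown because these genes had the lowest KO values relative to WT among the 10. Each line holds the 250 bases before the RefSeq transcription start on GRCm38.p6, both genes being on the minus strand. The Sla2 window is chr2:156887222-156887471, just upstream of the gene and in no annotated exon. The Ubash3b window is chr9:41158063-41158312, before the first of its listed starts, within the span of the gene in the GENCODE annotation but in no exon. Capitals mark matches to the motifs searched.
Sla2: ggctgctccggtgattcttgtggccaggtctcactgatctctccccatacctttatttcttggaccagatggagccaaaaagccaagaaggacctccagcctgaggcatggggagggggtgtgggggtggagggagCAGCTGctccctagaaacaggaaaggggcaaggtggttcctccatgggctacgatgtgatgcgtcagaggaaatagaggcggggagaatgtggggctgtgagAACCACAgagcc
Ubash3b: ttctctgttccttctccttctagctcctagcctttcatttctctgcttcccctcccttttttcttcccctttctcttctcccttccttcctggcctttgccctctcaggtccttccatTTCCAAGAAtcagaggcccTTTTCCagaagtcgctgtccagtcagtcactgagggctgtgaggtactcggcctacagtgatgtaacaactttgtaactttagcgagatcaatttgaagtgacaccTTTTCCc
In the Sla2 window the capitals are an E-box (CAGCTG) at bases -114 to -109 and a RUNX motif (TGTGGTT, read on the opposite strand) at bases -12 to -6, counted back from the start. In the Ubash3b window they are a STAT motif (TTCNNNGAA) at bases -132 to -124 and an NFAT motif (GGAAAA, on the opposite strand) at bases -113 to -108 and again at bases -7 to -2. The search used 9 motifs on both strands, the others being ETS (GGAAGT), AP-1 (TGACTCA), CRE (TGACGTCA), T-box (AGGTGTGA) and NF-kB. Matches were counted in all 32851 RefSeq windows of that length: 13.0% held the E-box, 4.40% the RUNX motif, 7.02% the STAT motif and 20.4% the NFAT motif. A match is a description of the letters in the window and not a binding site.

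Klrk1, which encodes NKG2D, was measured at 3.35, 2.10 and 1.60 CPM (counts scaled to library size) in the Th17 KO samples, against 130, 141 and 133 CPM in Th17 WT. It was measured at 5.58, 5.63 and 3.31 CPM in Th1 KO, against 161, 158 and 128 CPM in Th1 WT, so no KO library overlapped a WT library. Of the 12 libraries, 9 held 9108203 to 12688637 counts. The other 3, Th17 KO 2, Th17 WT 2 and Th17 WT 3, held 1722228, 2731909 and 1647232 counts, and a single gene ID took 51.0%, 18.3% and 48.1% of them. Results on Th17 samples that changed in a call without these 3 libraries are given both ways. The summed level of 5 CD4 T cell markers was 1512 to 1703 CPM in Th17 KO, against 1714 to 1860 CPM in Th17 WT, and 1373 to 1435 CPM in Th1 KO, against 1429 to 1487 CPM in Th1 WT. NK cell markers summed to at most 0.396 CPM in any sample, with Ncr1 at 0 in all, and CD8 T cell markers to at most 6.61 CPM. Summed Th17 markers were at 122 to 130 CPM in Th17 KO and 61.3 to 74.5 CPM in Th17 WT, against 1.23 to 3.15 CPM in Th1 KO and 0.580 to 1.04 CPM in Th1 WT. Th1 markers were high in both cultures, at 658 to 720 CPM in Th17 KO and 888 to 1054 CPM in Th17 WT, and 1001 to 1226 CPM in Th1 KO and 1167 to 1445 CPM in Th1 WT. All 10 genes passed the filter on low counts, which left 12189 genes for testing.

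Sla2 was read at far below its WT level in KO cells of both cultures and was lower in Th17 than in Th1 cells of either genotype. Its level was 7.32, 6.30 and 9.74 CPM in Th17 KO, against 36.1, 29.7 and 34.3 CPM in Th17 WT. In the Th1 cultures it was 17.2, 15.4 and 20.3 CPM in KO, against 64.3, 64.1 and 71.2 CPM in WT. All 3 KO samples were below all 3 WT samples in each culture, and no sample of any of the 4 groups overlapped another group. In such bulk samples, fewer cells that express a gene and less RNA of it per cell cannot be told apart. The order of the groups was Th17 KO (7.79 ± 1.77 CPM), Th1 KO (17.6 ± 2.45 CPM), Th17 WT (33.3 ± 3.31 CPM) and Th1 WT (66.5 ± 4.04 CPM; mean ± SD, n = 3 each). Fitted in edgeR, the KO level was 4.07-fold lower than WT in Th17 (log2 fold change -2.03, SE 0.14) and 3.78-fold lower in Th1 (-1.92, SE 0.10). Without the 3 shallow libraries the Th17 value was -2.09. The genotype difference in Th17 minus that in Th1 was -0.11 on the log2 scale (SE 0.18, 95% interval -0.45 to 0.24).

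**Figure D1:**
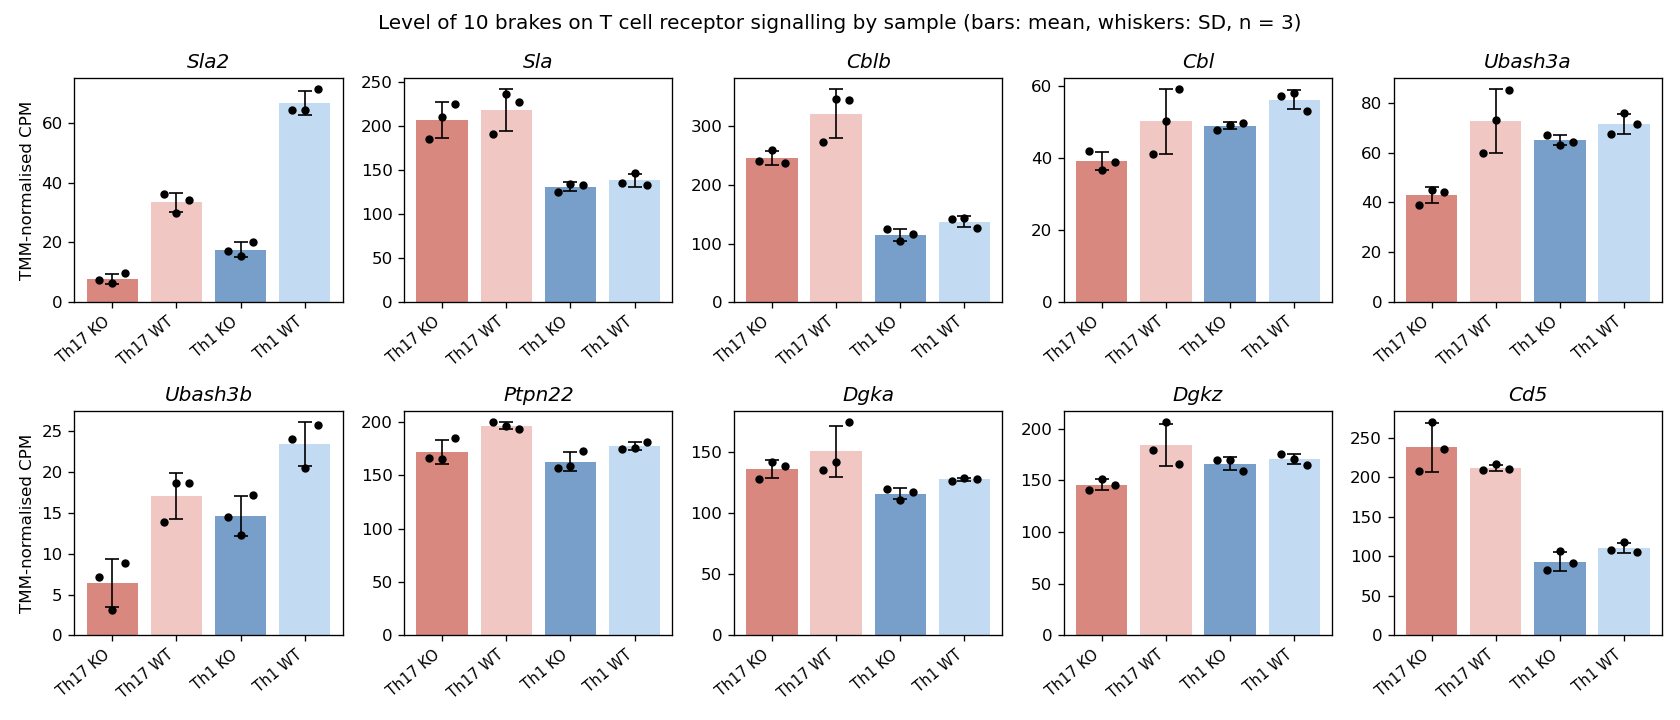
Level of each of the 10 genes in the 12 samples, in CPM, with 1 point per sample, a bar for the group mean and whiskers of 1 SD. The Sla2 points of KO samples lie between 6.30 and 20.3 CPM and those of WT samples between 29.7 and 71.2 CPM, while for Sla, Cbl, Dgka and Cd5 the KO and WT points of Th17 overlap.

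Among all 12189 genes tested, Sla2 had the 37th lowest log2 fold change of KO over WT in Th17 and the 24th lowest in Th1. Counting Sla2 itself, 9 genes were at least as low as Sla2 in both. Depth bears on the smallest values: the Th17 KO 2 library held 6 Sla2 counts, and the 95% exact Poisson interval of its level was 2.31 to 13.7 CPM, against 23.3 to 37.2 CPM for the 75 counts of Th17 WT 2 and 23.6 to 48.1 CPM for the 33 counts of Th17 WT 3. These intervals cover counting error only.

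Sla2 (ENSMUSG00000027636) lies on chromosome 2 at 156872457 to 156887192 (GRCm38, minus strand), and 731 of its 3099 exon bases, or 23.6%, are also exons of Rab5if on the plus strand. The library kit does not mark strand, so reads from the shared bases cannot be told apart. Rab5if was at 42.0 to 46.8 CPM in Th17 KO, against 45.5 to 49.1 CPM in Th17 WT (log2 fold change -0.10, adjusted p = 0.655), and at 48.3 to 50.9 CPM in Th1 KO, against 54.2 to 64.2 CPM in Th1 WT (-0.24, adjusted p = 0.0397, lost in 7 of 18 alternatives). These log2 fold changes were smaller in size than those of Sla2 in both cultures. The part of reads from the shared bases in the genotype difference of Sla2 was not tested.

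The culture difference of Sla2 was tested, since it did not choose the gene. Sla2 was lower in Th17 KO than in Th1 KO (log2 fold change -1.07, SE 0.14, edgeR adjusted p = 3.28e-07) and lower in Th17 WT than in Th1 WT (-0.96, SE 0.11, adjusted p = 5.82e-08). All 3 Th17 samples were below all 3 Th1 samples of the same genotype, and both calls held under every alternative tried.

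For the other 9 genes, KO was compared with WT in each culture by edgeR's quasi-likelihood test, adjusted over all genes. In Th17, 4 of the 9 were lower in KO (Ubash3a, Ubash3b, Dgkz and Cblb), none was higher, and 5 did not pass. Of all genes, 4.02% were called lower, 1.81% higher and 5.83% in either direction. In Th1, 1 of the 9 was lower in KO (Ubash3b), none was higher, and 8 did not pass. Of all genes, 2.92% were called lower there, 1.69% higher and 4.61% in either direction. The median log2 fold change of the 9 was -0.19 in Th17 and -0.14 in Th1, while the median of all genes was 0.00 in Th17 and -0.00 in Th1. All 3 KO samples were below all 3 WT samples for 5 of the 9 in Th17, which held for 9.59% of all genes, and for 6 of the 9 in Th1, which held for 13.4% of all genes.

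Several other measures moved with genotype in the Th17 cultures. Summed markers of B cells, mostly counts of Ebf1, were at 21.0 to 23.4 CPM in Th17 KO, against 8.31 to 16.4 CPM in Th17 WT, while Th1 KO had 0.347 to 1.05 CPM and Th1 WT 0.208 to 0.470 CPM. The B cell markers Cd79a, Cd79b and Ms4a1 had at most 10, 15 and 7 counts in any library. MHC class II genes summed to 85.1 to 92.3 CPM in Th17 KO, against 62.3 to 81.9 CPM in Th17 WT. Myeloid markers overlapped, at 6.47 to 10.5 CPM in Th17 KO and 5.93 to 6.61 CPM in Th17 WT. The 10.5 CPM came from the shallow Th17 KO 2 library. Mitochondrial transcripts took 19.0% to 20.8% of counts outside the dominant ID in Th17 KO, against 16.9% to 18.6% in Th17 WT. The part of these in the genotype differences was not tested.

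**Figure D2:**
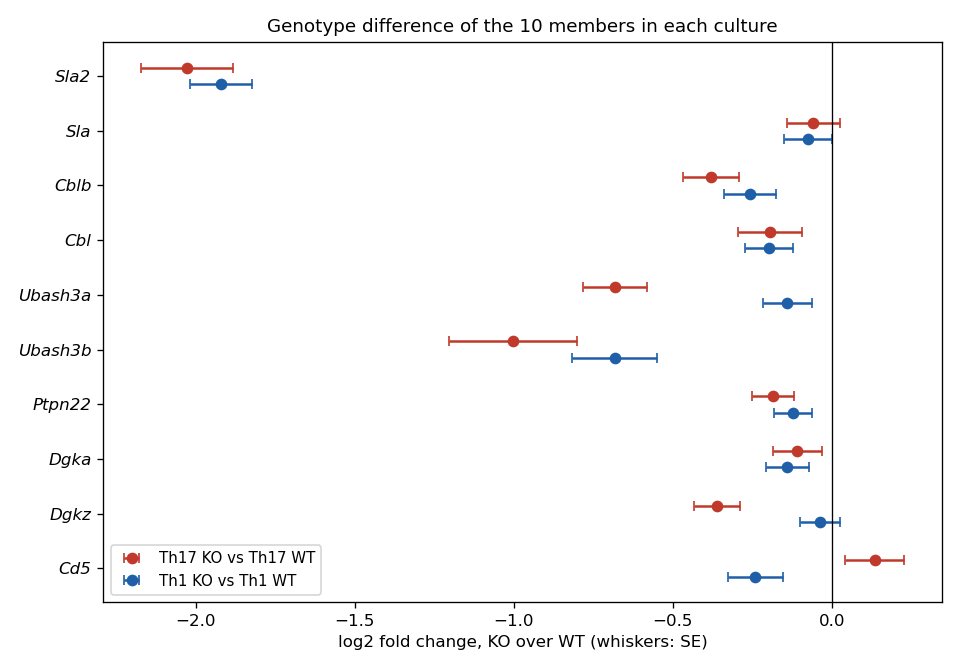
Log2 fold change of KO over WT for the 10 genes, in Th17 and in Th1, with whiskers of 1 SE (n = 3 per group). Sla2 lies near -2 in both cultures, Ubash3b is next at -1.0 in Th17 and -0.68 in Th1, and the other values lie between -0.68 and 0.13.

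Sla, the paralog of Sla2 with the same role as an adaptor for c-Cbl, did not show a difference between the genotypes. It was at 185, 210 and 225 CPM in Th17 KO, against 191, 236 and 227 CPM in Th17 WT, and at 126, 134 and 133 CPM in Th1 KO, against 135, 147 and 133 CPM in Th1 WT. KO and WT samples overlapped in both cultures. The log2 fold change of KO over WT was -0.06 in Th17 (95% interval -0.22 to 0.11, adjusted p = 0.804) and -0.08 in Th1 (-0.23 to 0.07, adjusted p = 0.715). The Th17 value had the opposite sign, 0.10, without the 3 shallow libraries.

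Between the cultures Sla went the other way from Sla2. It was higher in Th17 KO than in Th1 KO (0.65, SE 0.08, adjusted p = 2.49e-07) and higher in Th17 WT than in Th1 WT (0.63, SE 0.08, adjusted p = 7.22e-07). Scaled to exon length, the level of Sla2 over that of Sla was 0.111 ± 0.0203 in Th17 KO and 0.460 ± 0.0946 in Th17 WT, and 0.399 ± 0.0553 in Th1 KO and 1.43 ± 0.151 in Th1 WT (mean ± SD, n = 3 each). By this measure Sla2 was the more abundant of the pair only in Th1 WT cells. In CPM, without scaling to length, Sla was above Sla2 in all 4 groups, with 138 against 66.5 CPM in Th1 WT. The order in Th1 WT thus depends on the exon lengths used. Sla lies inside Tg, which is on the opposite strand and shares no exon base with it. Tg was at 84.0 to 120 CPM in Th17 KO and 107 to 131 CPM in Th17 WT, and at 4.68 to 6.90 CPM in Th1 KO and 3.54 to 5.15 CPM in Th1 WT. The part of reads from Tg in the culture difference of Sla was not tested.

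Cblb, whose product Cbl-b is the ligase most tied to the need for CD28 co-stimulation, was lower in Th17 KO than in Th17 WT and did not pass in Th1. It was at 241, 259 and 237 CPM in Th17 KO, against 273, 346 and 345 CPM in Th17 WT, and at 125, 105 and 116 CPM in Th1 KO, against 141, 144 and 127 CPM in Th1 WT. No KO sample reached a WT sample in either culture, although Th1 KO 1 and Th1 WT 3 lay close together. The log2 fold change was -0.38 in Th17 (SE 0.09, adjusted p = 0.0115) and -0.26 in Th1 (SE 0.08, adjusted p = 0.0850). The Th17 call was lost without Th17 KO 1 (adjusted p = 0.0636), Th17 KO 3 (0.0616), Th17 WT 2 (0.0769) or Th17 WT 3 (0.0511), and without the 3 shallow libraries the value was -0.20 (adjusted p = 0.303). In Th1, Cblb passed in 4 alternatives, and its adjusted p ranged between 0.00795 and 0.361.

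Cblb had one of the larger culture differences among the 10 genes, 1.08 between Th17 KO and Th1 KO (SE 0.09, adjusted p = 8.98e-10) and 1.20 between Th17 WT and Th1 WT (SE 0.09, adjusted p = 3.07e-10). Cbl, the gene of c-Cbl, had 36.8 to 42.0 CPM in Th17 KO, against 41.3 to 59.2 CPM in Th17 WT, and 47.9 to 49.8 CPM in Th1 KO, against 53.2 to 58.2 CPM in Th1 WT. It did not pass between the genotypes in Th17 (-0.19, SE 0.10, adjusted p = 0.398) or in Th1 (-0.20, SE 0.08, adjusted p = 0.155). In contrast to Cblb, Cbl was lower in Th17 KO than in Th1 KO (-0.29, SE 0.09, adjusted p = 0.00629) and in Th17 WT than in Th1 WT (-0.29, SE 0.09, adjusted p = 0.0109). The first call was lost without Th17 KO 3 (adjusted p = 0.0502). The second was lost without Th17 WT 1 (-0.08, adjusted p = 0.603) and with DESeq2 (adjusted p = 0.0954). Per kilobase of exon, Cblb exceeded Cbl 7.41 ± 0.808 times in Th17 KO and 7.60 ± 0.657 times in Th17 WT, and 2.77 ± 0.275 times in Th1 KO and 2.88 ± 0.0562 times in Th1 WT (mean ± SD, n = 3 each).

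In Th17 the Cbl-binding pair Ubash3a and Ubash3b had the lowest log2 fold changes of KO over WT after Sla2. Ubash3b was at 7.09, 3.15 and 8.90 CPM in Th17 KO, against 13.8, 18.6 and 18.7 CPM in Th17 WT. In Th1 it was at 14.5, 12.3 and 17.2 CPM in KO, against 24.0, 20.4 and 25.7 CPM in WT. The genotypes did not overlap in either culture, and the lowest value, in Th17 KO 2, rested on 3 counts (95% exact Poisson interval 0.650 to 9.21 CPM). In KO cells Ubash3b was 2.00-fold lower in Th17 (log2 fold change -1.0 with an SE of 0.20, adjusted p = 0.00310) and 1.60-fold lower in Th1 (-0.68, SE 0.13, adjusted p = 0.00298). The Th1 call held under all 18 alternatives. The Th17 call was lost in 1 of 18, the fit without the 3 shallow libraries, where the value was -0.80 (adjusted p = 0.0662).

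Ubash3a, whose product has weak phosphatase activity, was lower in KO cells in Th17. It was at 39.2, 45.2 and 44.3 CPM in Th17 KO, against 59.7, 73.2 and 85.1 CPM in Th17 WT. In Th1 it was at 67.1, 63.2 and 64.4 CPM in KO, against 67.3, 75.7 and 71.2 CPM in WT. The Th17 groups were well apart, while Th1 KO 1 and Th1 WT 1 nearly met. The log2 fold change was -0.68 in Th17 (SE 0.10, adjusted p = 8.02e-05), a call that held under all 18 alternatives, and -0.14 in Th1 (95% interval -0.29 to 0.01, adjusted p = 0.399).

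The difference between these genotype differences, Th17 minus Th1, was tested for the 9 genes, with 0.591% of all genes called and 0.476% called with a lower value. Ubash3a was the 1 gene of the 9 that passed, at -0.54 (SE 0.13, adjusted p = 0.0454). It failed in 13 of 17 alternatives, among them leaving out any 1 library other than Th17 WT 1. Over the alternatives its adjusted p ranged between 0.00175 and 0.173 and its value between -0.74 and -0.39. Next came Dgkz at -0.32 (SE 0.10, adjusted p = 0.143) and Cd5 at 0.37 (SE 0.13, adjusted p = 0.249). Ubash3b had -0.32 (SE 0.24, adjusted p = 0.754), so its different sizes in Th17 and Th1 were within the error.

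Between the cultures, Ubash3b was lower in Th17 KO than in Th1 KO (-0.92, SE 0.17, adjusted p = 8.90e-05) and in Th17 WT than in Th1 WT (-0.60, SE 0.17, adjusted p = 0.00473). The WT call was lost without Th17 WT 1 (-0.34, adjusted p = 0.271). Ubash3a was lower in Th17 KO than in Th1 KO (-0.63, SE 0.09, adjusted p = 1.71e-06). In WT cells it did not pass (-0.08, 95% interval -0.26 to 0.10, adjusted p = 0.483), the sign turned to 0.11 without Th17 WT 1, and without the 3 shallow libraries it passed at -0.26 (adjusted p = 0.0288). Per kilobase, Ubash3b was below Ubash3a in all 4 groups, the ratio being 0.231 ± 0.109 in Th17 KO and 0.361 ± 0.0269 in Th17 WT, and 0.346 ± 0.0573 in Th1 KO and 0.505 ± 0.0787 in Th1 WT.

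Ptpn22 varied little. Its levels were 165 to 185 CPM in Th17 KO, against 193 to 200 CPM in Th17 WT, and 157 to 173 CPM in Th1 KO, against 174 to 181 CPM in Th1 WT. Although the KO and WT ranges did not meet in either culture, the log2 fold changes of -0.18 in Th17 (SE 0.07, adjusted p = 0.117) and -0.12 in Th1 (SE 0.06, adjusted p = 0.300) did not pass. Between the cultures it did not pass in KO (0.09, adjusted p = 0.224) or in WT (0.15, adjusted p = 0.0503), and the WT value passed in 5 of 18 alternatives.

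The diacylglycerol kinase genes, Dgkz and Dgka, have products that end the diacylglycerol signal downstream of the receptor. Dgkz was at 140, 151 and 146 CPM in Th17 KO, against 180, 206 and 166 CPM in Th17 WT. It was at 170, 170 and 159 CPM in Th1 KO, against 175, 171 and 165 CPM in Th1 WT. The genotypes were apart in Th17 and overlapped in Th1. Dgkz was lower in KO in Th17 (-0.36 on the log2 scale, SE 0.07, adjusted p = 0.00230), under all 18 alternatives, and did not pass in Th1 (-0.04, 95% interval -0.16 to 0.09, adjusted p = 0.858). Dgka was at 128 to 142 CPM in Th17 KO, against 135 to 174 CPM in Th17 WT, and at 111 to 120 CPM in Th1 KO, against 126 to 129 CPM in Th1 WT. It did not pass in Th17 (-0.11, adjusted p = 0.544) or in Th1 (-0.14, adjusted p = 0.300). The difference between both genes was not tested, and per kilobase the ratio of Dgkz over Dgka was 0.797 to 0.832 in Th17 KO, within the 0.723 to 1.10 of Th17 WT.

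Dgka was higher in Th17 KO than in Th1 KO (0.22, SE 0.07, adjusted p = 0.0115) and in Th17 WT than in Th1 WT (0.19, SE 0.07, adjusted p = 0.0384). These were weak calls: the first was lost without Th1 KO 2 (adjusted p = 0.0620) or Th17 KO 3 (0.0711), and the second in 9 of 18 alternatives, among them without Th1 WT 1, Th1 WT 2, Th1 WT 3, Th1 KO 2, Th17 WT 2 or Th17 WT 3, where the last gave 0.11. Its adjusted p was up to 0.381, at 0.083 without the 3 shallow libraries. Dgkz was lower in Th17 KO than in Th1 KO (-0.20, SE 0.07, adjusted p = 0.0143), a call lost without Th1 KO 2 (0.0611) or Th17 KO 1 (0.0865), and did not pass in WT (0.12, adjusted p = 0.141). Exons of Dgka share 105 bases with Pmel, which had at most 11 counts in a library, and exons of Dgkz share 222 bases with a predicted gene that had at most 1.

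Cd5 was the gene with the highest Th17 levels per exon length among the 10 and the 1 whose mean was higher in KO than in WT in Th17. It was at 208, 270 and 236 CPM in Th17 KO, against 209, 216 and 211 CPM in Th17 WT, and at 82.4, 107 and 91.1 CPM in Th1 KO, against 108, 118 and 106 CPM in Th1 WT. The genotypes overlapped in both cultures. The log2 fold change was 0.13 in Th17 (SE 0.09, adjusted p = 0.509) and -0.24 in Th1 (SE 0.09, adjusted p = 0.134), and the Th1 value passed in 2 of 18 alternatives. In KO cells Cd5 had the largest difference between the cultures among the 10 genes, 1.31 between Th17 KO and Th1 KO (SE 0.09, adjusted p = 1.61e-10). Between Th17 WT and Th1 WT it had 0.94 (SE 0.09, adjusted p = 4.16e-08), smaller in size than Cblb (1.20) and Sla2 (-0.96).

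**Figure D3:**
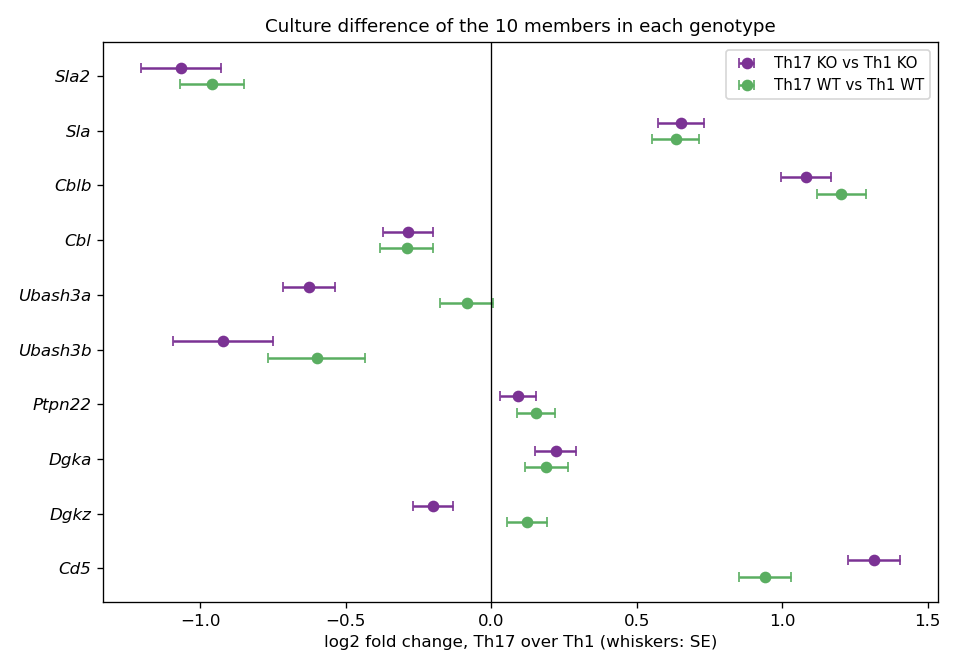
Log2 fold change of Th17 over Th1 for the 10 genes, in KO and in WT cells, with whiskers of 1 SE (n = 3 per group). Cblb, Cd5 and Sla lie between 0.63 and 1.31 in both genotypes, Sla2 lies at -1.07 and -0.96, and Ubash3a lies at -0.63 in KO and -0.08 in WT.

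The culture comparisons of all 10 genes can be set side by side. In KO cells 4 were higher in Th17 than in Th1 (Cd5, Cblb, Sla and Dgka), 5 were lower (Sla2, Ubash3b, Ubash3a, Cbl and Dgkz) and Ptpn22 did not pass. Of all genes, 26.9% were called higher, 26.7% lower and 53.6% in either direction. In WT cells the same 4 were higher, Sla2, Ubash3b and Cbl were lower, and 3 did not pass. Of all genes, 23.5% were called higher there, 23.6% lower and 47.1% in either direction. A call was thus common among all genes in these comparisons. The genotype and culture comparisons draw on the same 12 samples and are not independent of each other.

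**Figure D4:**
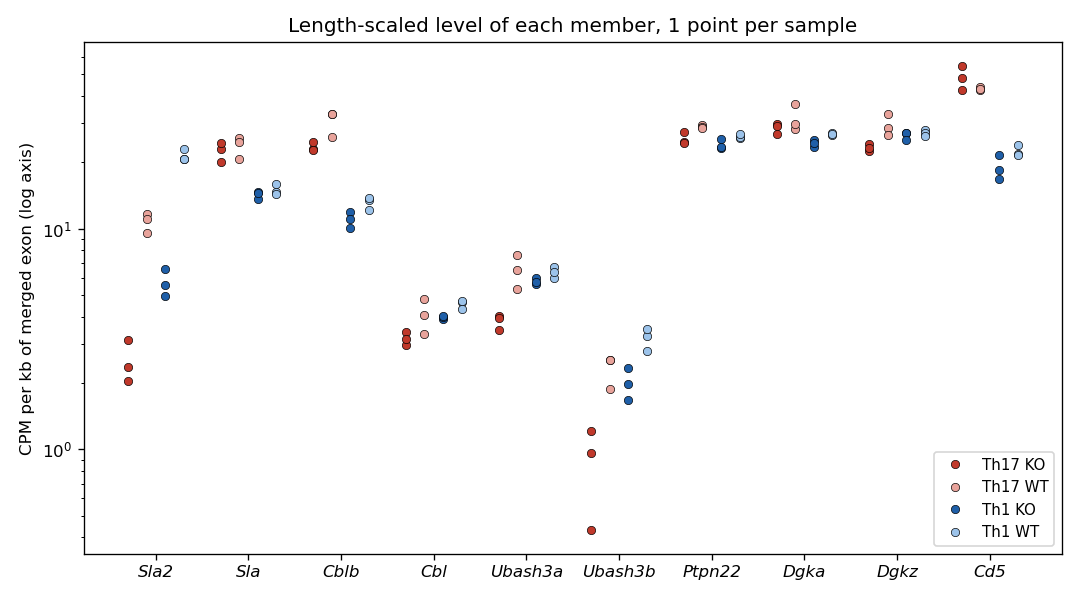
Level of the 10 genes per kilobase of exon (CPM per kb, log scale), with 1 point per sample in the 4 groups. Cd5 averaged 48.3 CPM per kb in Th17 KO and 43.0 in Th17 WT, and Ubash3b, the lowest in Th17 KO, averaged 0.871 there and 2.32 in Th17 WT.

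Per kilobase of merged exon, levels between the genes could be ordered within a group, although merged exons may be longer than the transcripts made. In Th17 KO the means were 48.3 CPM per kb for Cd5, then 28.6 for Dgka, 25.4 for Ptpn22, 23.5 for Cblb, 23.2 for Dgkz and 22.5 for Sla. A wide step separated these from the rest, with 3.81 for Ubash3a, 3.18 for Cbl, 2.51 for Sla2 and 0.871 for Ubash3b. Cblb, Dgkz and Sla did not differ beyond their SDs of 1.16, 0.873 and 2.20. In Th1 WT, Dgkz at 27.2, Dgka at 26.8 and Ptpn22 at 26.2 CPM per kb were within about 1 SD of each other (0.796, 0.279 and 0.559), followed by Cd5 at 22.4 and Sla2 at 21.5. Sla2 therefore stood among the 5 highest of the 10 in Th1 WT and next to last in Th17 KO.

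Across the 12 samples, log2 CPM of the 9 genes was compared with that of Sla2 by Pearson's r, as a description without a test, since the samples fall into 4 groups that Sla2 itself separates. Ubash3b had r = 0.895, Ubash3a 0.808, Cbl 0.800 and Dgkz 0.620. The lowest were Cd5 at -0.44, Sla at -0.35 and Cblb at -0.23. Among all genes tested, members and predicted genes left out, the 5 most like Sla2 were Usp18 (0.973), Tnfrsf23 (0.960), Ikzf1 (0.950), Ms4a4b (0.949) and Serpinb5 (0.948). Tnfrsf23 has close paralogs beside it, so its counts may share reads with them and are uncertain. Their levels show how different in size such patterns can be. Usp18, which encodes an interferon-induced isopeptidase, averaged 3.97 CPM in Th17 KO and 15.2 in Th17 WT, and 7.70 in Th1 KO and 27.6 in Th1 WT. Ikzf1, which encodes the transcription factor Ikaros, averaged 277 CPM in Th17 KO and 350 in Th17 WT, and 313 in Th1 KO and 358 in Th1 WT.

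Genes around Sla2 on chromosome 2 did not share its size of difference. Of 29 tested genes that start within 1 Mb, 4 were called in Th17 (13.8%, beside 5.83% of all genes). In Th1, 5 were called, all of them lower (17.2%, beside 4.61% of all genes in either direction and 2.92% lower). In Th17, Ndrg3 (log2 fold change -0.44, adjusted p = 0.00613) and Samhd1 (-0.34, adjusted p = 0.00158), which encodes a nucleotide hydrolase, were lower in KO. Epb41l1 (1.20, adjusted p = 0.0466) and 5430405H02Rik (1.19, adjusted p = 0.0210) were higher. Of these calls, that of Epb41l1 was lost in 13 of 18 alternatives (adjusted p up to 0.213), that of 5430405H02Rik in 6, that of Ndrg3 in 2 and that of Samhd1 in none. In Th1, Ndrg3 (-0.41, adjusted p = 0.00220), Samhd1 (-0.26, adjusted p = 0.0131), Rab5if, Dsn1 and Rbl1 were lower in KO. There the call of Ndrg3 was lost in none of the 18 alternatives, that of Samhd1 in 4, that of Rbl1 in 6 and those of Rab5if (adjusted p up to 0.258) and Dsn1 in 7 each, all of them with 1 sample left out or with DESeq2. The median log2 fold change of the 29 was 0.02 in Th17 and -0.02 in Th1. The 5 genes called in Th1 start between -24.1 and 317 kb from the Sla2 start, and the other tested genes in that span were not called.

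**Figure D5:**
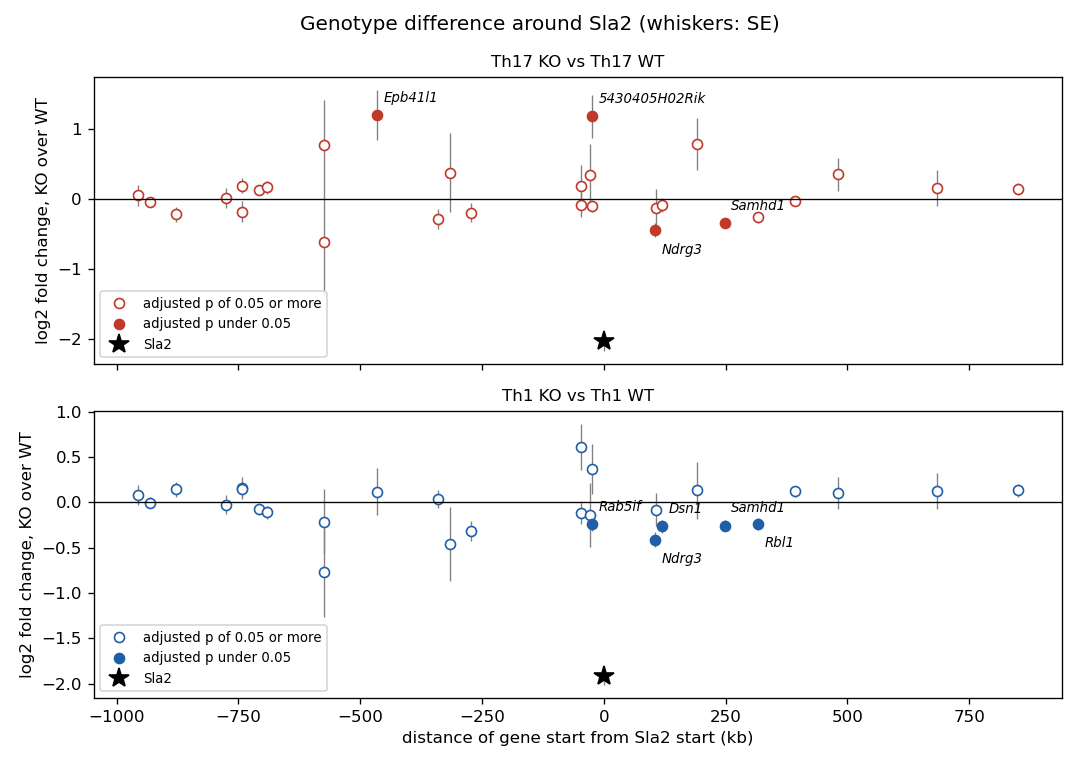
Log2 fold change of KO over WT for Sla2 and the 29 tested genes that start within 1 Mb of it, against the distance of the gene start in kb, in Th17 and Th1, with whiskers of 1 SE. Filled points passed an adjusted p of 0.05, and Sla2, drawn as a star with no test, lies at -2.03 and -1.92, below all others.

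Genes of the same pathway that are not among the 10 were read from 4 lists. Of 32 genes of proximal T cell receptor signalling, all tested, 9 were lower and none higher in Th17 KO than in Th17 WT. That was 28.1% of the list, beside 4.02% of all genes called lower. In Th1 KO, 7 were lower and none higher than in Th1 WT, or 21.9% of the list, beside 2.92% of all genes called lower. The list's median log2 fold change was -0.16 in Th17 and -0.08 in Th1. Fyn, a Src-family kinase of the receptor, was lower in KO in both (-0.42 in Th17, adjusted p = 0.00127; -0.41 in Th1, adjusted p = 0.000232). In Th17, Prkcq (-0.56, adjusted p = 5.59e-05), the kinase PKC-theta, and Lat (-0.39, adjusted p = 0.00175), the adaptor phosphorylated by ZAP-70, were also lower. In Th1, Ptprc (-0.28, adjusted p = 0.0206), which encodes CD45, and Cd247 (-0.22, adjusted p = 0.0252), the zeta chain, were. Fyn in both cultures and Prkcq in Th17 passed under all 18 alternatives, Lat in Th17 in all but the fit without the 3 shallow libraries, and Ptprc and Cd247 in Th1 in 14 of 18, both failing without Th1 WT 1, Th1 WT 2, Th1 KO 2 or Th1 KO 3. Fewer proximal genes were called lower in Th17 without the 3 shallow libraries. Over the other alternatives the count of lower genes was 4 to 12 in Th17 and 2 to 9 in Th1. The count in Th17 was 5 without Th17 KO 1 and 4 without Th17 WT 2. In Th1 it was 2 without Th1 KO 2 or Th1 WT 2, 3 without Th1 KO 3 or Th1 WT 1 and 4 without Th1 KO 1 or Th1 WT 3.

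Between the cultures, 8 of the 32 proximal genes were higher and 13 lower in Th17 KO than in Th1 KO (65.6%, beside 53.6% of all genes), and 8 were higher and 9 lower in Th17 WT than in Th1 WT (53.1%, beside 47.1% of all genes). Rasgrp1, a Ras activator that responds to diacylglycerol, was lower in Th17 at -1.73 in KO (adjusted p = 1.33e-16) and -1.49 in WT (adjusted p = 9.43e-15). Malt1, which encodes a protease of the NF-kB branch, was higher at 0.86 in KO (adjusted p = 6.32e-12) and 0.74 in WT (adjusted p = 1.97e-10).

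Of 32 further genes listed as brakes on the receptor signal, such as other phosphatases, Dok adaptors and ubiquitin editors, 31 were tested. In Th17 none passed between the genotypes in the main edgeR fit, while 9 had an unadjusted p under 0.05 and DESeq2 called 1, lower. The smallest p was that of Nedd4 (0.26, SE 0.08, adjusted p = 0.0658), a ubiquitin ligase whose place among the brakes is uncertain. Nedd4 passed in 3 of 18 alternatives, with no filter and without Th17 WT 1 or Th17 KO 2. In Th1, 2 were lower in KO and none higher: Tnfaip3 (-0.46, SE 0.07, adjusted p = 0.000145), which encodes the ubiquitin-editing protein A20, under all 18 alternatives, and Dok1 (-0.31, SE 0.09, adjusted p = 0.0357), which failed in 7 of 18, with DESeq2 and without any 1 of the Th1 libraries. The count of lower genes in Th1 was 1 to 4 over the alternatives, and it was 1 without any 1 Th1 library other than Th1 KO 3. The median was -0.08 in Th17 and -0.07 in Th1. The share of the list called was 0% in Th17, beside 5.83% of all genes, and 6.45% in Th1, beside 4.61% of all genes. In KO cells 9 were higher and 11 lower in Th17 than in Th1, and in WT cells 10 were higher and 10 lower, so that 64.5% of the list was called in each genotype, beside 53.6% of all genes in KO and 47.1% in WT. Tnfaip3 was higher in Th17 by 2.83 in KO (adjusted p = 1.67e-20) and 2.53 in WT (adjusted p = 4.52e-19), and Pag1, an adaptor that holds the inhibitory kinase Csk at the membrane, was lower, at -1.76 in KO (adjusted p = 5.16e-14) and -1.58 in WT (adjusted p = 3.54e-12).

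Of 20 genes induced by receptor engagement, 19 were tested, and 1 was lower in KO in each culture and none higher: Nfatc1 in Th17 (-0.48, adjusted p = 0.00150) and Tnfrsf4, the gene of OX40, in Th1 (-0.27, adjusted p = 0.0397, failing in 10 of 18 alternatives; -0.16 without Th1 WT 1). The median was -0.09 in Th17 and 0.00 in Th1. In each culture 5.26% of the list was called, beside 5.83% of all genes in Th17 and 4.61% in Th1. In the culture comparison 10 of the 19 were higher in Th17 KO than in Th1 KO and 4 lower, and 12 were higher in Th17 WT than in Th1 WT and 3 lower. That was 73.7% of the 19 in KO, beside 53.6% of all genes, and 78.9% in WT, beside 47.1% of all genes. The activation gene Cd69 was higher in Th17 by 1.55 in KO (adjusted p = 5.97e-10) and 1.36 in WT (adjusted p = 1.26e-08), and the early-response gene Nr4a1 by 3.56 (adjusted p = 1.88e-08) and 3.07 (adjusted p = 1.71e-07).

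Of 13 paralogs of the 10 genes, 9 were tested. In Th17, 1 was lower in KO, the diacylglycerol kinase gene Dgkh (-1.14, SE 0.16, adjusted p = 5.05e-05), and 1 was higher, Dgkg of the same family (1.28, SE 0.23, adjusted p = 0.000726). The Dgkh call held under all 18 alternatives, and that of Dgkg was lost in 1, without Th17 WT 1. In Th1, Dgkh alone of the 9 was lower in KO (-0.44, SE 0.13, adjusted p = 0.0460), and it failed in 7 of 18 alternatives, among them without any 1 Th1 library other than Th1 WT 3. Between the genotypes the share of the 9 called was 22.2% in Th17, beside 5.83% of all genes, and 11.1% in Th1, beside 4.61% of all genes. In the culture comparison 2 of the 9 were higher in Th17 KO than in Th1 KO and 2 lower, and 3 were higher in Th17 WT than in Th1 WT and 1 lower. That was 44.4% of the 9 in each genotype, beside 53.6% of all genes in KO and 47.1% in WT. Dgkg was higher in Th17 by 2.32 in KO (adjusted p = 4.65e-10) and 1.67 in WT (adjusted p = 1.52e-05).

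For the interaction of culture and genotype no gene of the 4 lists passed by edgeR or by DESeq2. Under single alternatives Spry2 and Dgkh passed with no filter (adjusted p = 0.0402 and 0.0401), and Rgs1, named after its values were seen, without the 3 shallow libraries (0.63, adjusted p = 0.0110). Genes with an unadjusted edgeR p under 0.05 numbered 6 of the proximal genes, 5 of the further brakes, 1 of the induced genes and 1 of the paralogs. The smallest p in each list was that of Plcg1 (-0.35, adjusted p = 0.0949), Spry2 (-1.30, adjusted p = 0.189), Nfatc1 (-0.26, adjusted p = 0.433) and Dgkh (-0.70, adjusted p = 0.143).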

How the data were processed

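Full-length poly-A cDNA was made with a kit that does not mark strand (SMART-Seq v4), tagmented and sequenced as read pairs, per the labels' protocols. The deposited values are raw read counts per Ensembl gene ID, made by the authors with TopHat2, Bowtie2 and featureCounts on GRCm38 (mm10), per the submitters' processing notes. Their versions, the strand setting and the handling of multi-mapping reads are not given in the sources used here. Names and coordinates came from GENCODE vM21, which matched 37693 of 39179 IDs (96.2%), and upstream sequences from RefSeq (GRCm38.p6), where 9 of the 10 genes had an entry.

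Counts were normalised by TMM, filtered with filterByExpr and fitted over all 12 samples and 4 groups in edgeR 4.0.16 (R 4.3.3) with the robust quasi-likelihood F-test. P-values were adjusted by Benjamini-Hochberg over 12189 genes, with 0.05 as the threshold. CPM are TMM-scaled. SE is the absolute log2 fold change over the root of F, and 95% intervals are normal intervals from the SE. Levels per kilobase used the merged exons of all annotated transcripts of a gene, which may be longer than the transcripts made. The fit was tested on simulated data. No 2 replicates matched within sampling noise, and replicate numbers follow the order of deposit and are only names. With 3 against 3 samples no exact permutation p can fall under 0.1.

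Members and lists were chosen with earlier results of these data known. The text names the 10 genes, Klrk1, up to 4 genes of smallest p per list and comparison (the 1 of smallest p where none passed), called neighbours of Sla2 and the nearest tested on each side (Rab5if and Ndrg3), and the 5 genes most like Sla2 (r of log2 CPM, prior count 2). Not every gene that meets this rule is reported here. Markers and Tg were added beside results they move with. Tried as alternatives were DESeq2 1.42.0, RLE size factors, no low-count filter, fits of only the groups compared and fits with each sample left out. Chosen after seeing the data were fits without the 3 shallow libraries, which leave 1 Th17 WT sample that is taken to vary as the other groups do, without the ID that dominates them, and with library codes as a block, which is given with the dependence on processing only and is not among the 18 (interaction: 17) alternatives counted.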

Additional observations from a re-analysis of the deposited data

Results flagged for a closer look

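The genotype difference of Ubash3a was flagged because it differed between the cultures by the test of the difference itself: the log2 fold change of KO over WT in Th17 minus that in Th1 was -0.542 (SE 0.13, edgeR adjusted p = 0.0454). Ubash3a averaged 42.9 CPM in Th17 KO and 72.7 CPM in Th17 WT, and 64.9 CPM in Th1 KO and 71.4 CPM in Th1 WT. Its direction was the same in all 17 alternatives, the adjusted p was under 0.05 in 4 of them, and without the 3 shallow libraries the value was -0.39 (adjusted p = 0.173).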

How the results depend on the processing

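Over 890 values of the 10 genes under alternatives (5 comparisons), 820 kept their direction and their side of the threshold, 36 lost a call, 14 gained one and 20 turned sign. Genes called in Th17 KO against WT numbered 711, but 356 with only the groups compared, 319 without the 3 shallow libraries and 411 to 713 with 1 sample left out. In Th1 KO against WT they numbered 562, but 317 with DESeq2, 922 with only the groups compared and 260 to 679 with 1 sample left out. For the interaction they numbered 72, but 207 with no filter and 38 to 108 with 1 sample left out. Of the 9 genes other than Sla2, 4 were called in Th17, but 2 without the shallow libraries and 3 to 5 with 1 sample left out. In Th1 it was 1, but 3 with no filter (Cblb and Cd5 added), 2 with only the groups compared or without the shallow libraries (Cblb added), and 1 to 2 with 1 sample left out. In the interaction it was 1, but 0 with DESeq2 or without the shallow libraries, 2 with no filter and 0 to 1 with 1 sample left out.

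Sign turns came at values near 0. With 1 sample left out, Sla in Th17 KO against WT ranged between -0.17 and 0.042 (0.097 without the shallow libraries) and Ubash3a in Th17 WT against Th1 WT between -0.15 and 0.11. In the interaction the same ranges were -0.32 to 0.063 for Sla2, -0.097 to 0.12 for Sla, -0.20 to 0.063 for Cbl and -0.053 to 0.11 for Dgka. There Cbl was also -0.035 with DESeq2 and -0.000411 with RLE size factors, and Cblb 0.048 without the shallow libraries. The cause was not tested.

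The labels carry no shared replicate numbers. Samples were paired by an assumed rule, each KO library code being that of a WT sample of the same culture plus 2. Deviations of such pairs from their group means correlated at -0.06 to 0.23, and 9 of 12 samples correlated best with the other sample of their pair. Other KO and WT samples of the same culture correlated at -0.19 to 0.11. Whether the codes pair samples was not tested, and the main fit treats the samples as unpaired. With the codes as a block, 1315 genes were called in Th1, 1117 in Th17 and 329 in the interaction, of the 9 genes 4 (Cblb, Cbl and Cd5 added), 5 (Ptpn22 added) and 3 (Dgkz and Cd5 added). Of the 4 lists, the block called 2 higher and 2 lower further brakes, 1 lower proximal gene and 2 lower induced genes in the interaction. Between the genotypes it called 2 higher and 4 lower further brakes in Th17, and 2 higher and 7 lower in Th1. Of the proximal genes it called 12 lower in Th17, and 1 higher and 9 lower in Th1. Of the induced genes it called 4 lower in Th17, and 1 higher and 2 lower in Th1. Depth limits Sla2 and Ubash3b most in Th17 KO 2, with 6 and 3 counts. Genotype cannot be told apart from the Thy1 allele and the NKG2D gate.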
